A study of Mus musculus with 14 samples.

Results

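Whole eyes of newborn wildtype mice were compared between the C57BL/6 strain and a mixed background. The 7 arrays used, of 14 in the series, were all those labelled wildtype: 4 of C57BL/6 pups from an experiment on the chromatin remodelling enzyme Snf2h, and 3 of mixed-background pups from an experiment on the remodelling enzyme Brg1. Knockout arrays were left out. All eyes were taken at postnatal day 1, and 50 ng of total RNA per sample was amplified and labelled with biotin for a single-colour Affymetrix array. The labels give no floxed allele, Cre transgene, sex, C57BL/6 substrain or pooling of animals for the wildtype groups, and do not say which strains the mixed background holds. The series text calls the replicates biological without saying this of the mixed-background arrays, so p-values measure the spread between these samples, which may be technical. Strain, experiment and any processing lot changed together, and their parts in a difference cannot be told apart. The sample titles of the mixed-background arrays carry numbers of an earlier deposit, and those of the C57BL/6 arrays do not.

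A newborn mouse eye still holds dividing lens epithelium and retinal progenitors. Lens fibre cells fill with crystallins, the soluble proteins that give the lens its refractive power, and later lose their nuclei and organelles. Rod and cone photoreceptors are being born and begin to make the proteins of the light response. Around them lie the pigmented epithelium, cornea, conjunctiva, eye muscles, vessels that still nourish the lens, and remnants of skin and gland that can come with an enucleated eye. In such bulk RNA, fewer cells of a type and less RNA per cell cannot be told apart.

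Levels are given as log2 of the deposited intensity, and differences as C57BL/6 minus mixed background, so that a difference of 1 is a 2-fold higher intensity in C57BL/6. Some array-wide measures stood apart by group or by single array. For the housekeeping gene Gapdh, the level of the 3′ probe set minus that of the 5′ probe set was 1.31, 1.46, 4.47 and 1.09 on C57BL/6 replicates 1 to 4 and 0.68 to 0.74 on the mixed-background arrays. The same difference for Actb was 1.44 to 3.08 against 1.0 to 1.12, so this sign of RNA quality did not overlap between the groups and was farthest out in C57BL/6 replicate 3. The middle probe set of 18S ribosomal RNA read 8.45 to 9.79 in C57BL/6 and 11.42 to 12.90 in mixed-background eyes. The mean of 28 cornified skin and hair genes was 6.25 on C57BL/6 replicate 3 and 3.95 to 4.53 on the other 6 arrays. Xist, the RNA that coats the inactive X chromosome of females, read 4.12 and 5.40 on C57BL/6 replicates 1 and 3 and 10.06 to 11.77 on the other 5 arrays, while the Y-linked gene Eif2s3y read 9.91 to 10.01 on those 2 arrays and 1.66 to 2.58 elsewhere.

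**Figure D1:**
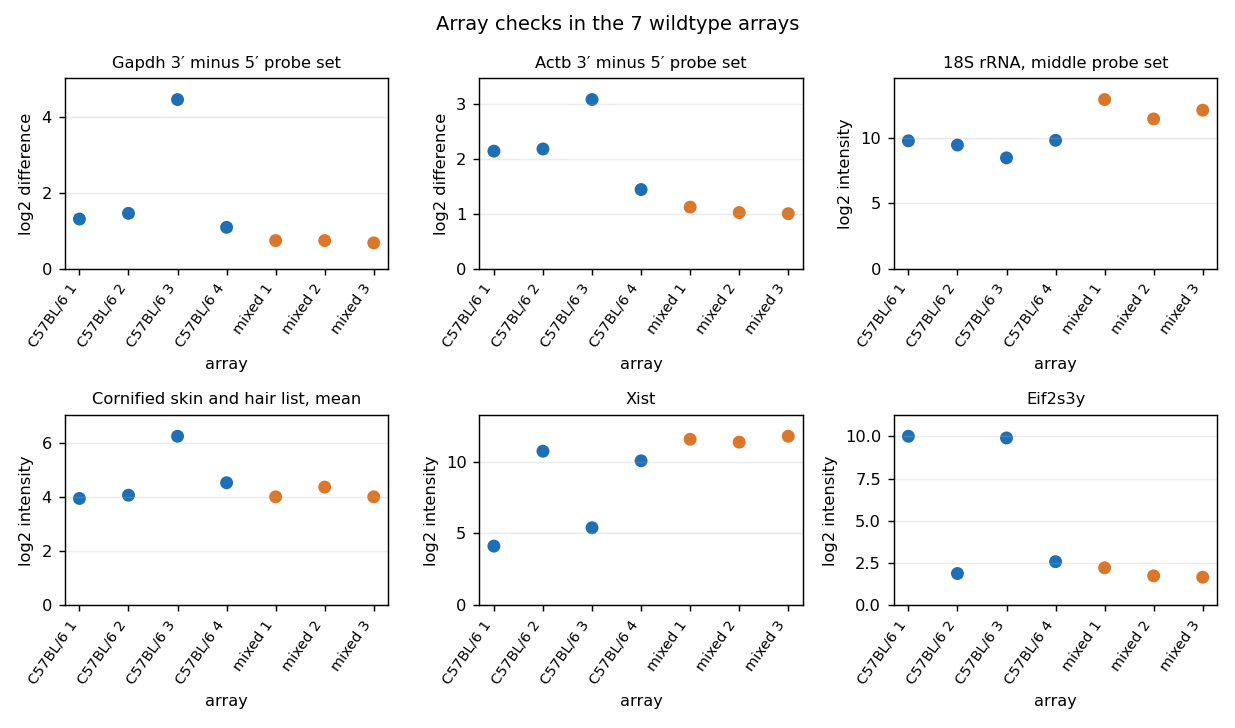
Array checks for C57BL/6 (blue) and mixed-background (orange) wildtype arrays, 1 point per array, with the array on the x axis and log2 intensity, or a difference of log2 intensities, on the y axis. C57BL/6 replicate 3 has the highest Gapdh difference (4.47) and the highest cornified skin mean (6.25), and C57BL/6 replicates 1 and 3 have low Xist and high Eif2s3y.

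The brightest genes were shared by all 7 eyes. Of 12393 genes measured, 55 were among the 100 brightest on each array, and 167 were among them on at least 1. Probe sets differ in how well they bind, so no order of transcript abundance is read from these levels. Cytosolic ribosomal proteins made up 21 of the 55 and crystallins 9. The crystallins were the beta crystallins Cryba1, Crybb1 and Crybb3, the gamma crystallins Cryga, Crygb, Crygd, Crygf and Crygs, and the small heat shock protein Cryab. Cryba1 ranged from 13.35 to 13.89 over the 7 arrays and was never below rank 3. Cryga ranged from 12.82 to 13.36 and Crygf from 12.36 to 12.86.

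Other eye tissues were present in the same set. Ccnd1, the cyclin D1 of dividing retinal progenitors, ranged up to 12.80, and the intermediate filament Vim up to 12.81. The matrix genes Col1a1 (up to 13.02) and Sparc (up to 12.64) and the prostaglandin D synthase Ptgds (up to 12.98) were there too. Neural adhesion and cytoskeletal genes of the set were Ncam1, Cd24a, Stmn1, Tuba1a and Tmsb10. A gene had to be bright on every array to enter the set, which favours genes that differ little between the groups. The number of calls within it is therefore no measure of how bright genes differ in general. A gene was called where its limma p, adjusted for all 12393 genes, was below 0.05, and Rps29 was the single called gene of the 55, higher in C57BL/6 by 0.53 ± 0.14 (SE, limma adjusted p = 0.0175). That call was lost without mixed replicate 2 (0.50, adjusted p = 0.0652) or mixed replicate 3 (0.51, adjusted p = 0.0608), with Xist as a covariate (0.47, adjusted p = 0.124) and without the 2 C57BL/6 arrays low in Xist (0.49, adjusted p = 0.0726).

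The 4 gamma crystallins below lie on chromosome 1 and were bright on every array, so the stretches before their starts are shown. Each is the 150 bases before the transcript start, 5′ to 3′ along the gene's strand, from RefSeq (GRCm38.p6). Capitals mark TATATA, which reads the same on both strands, and TTTGTG, searched on both strands. These motifs were chosen after the sequences were seen.
Cryga, chr1:65103364-65103513, minus strand: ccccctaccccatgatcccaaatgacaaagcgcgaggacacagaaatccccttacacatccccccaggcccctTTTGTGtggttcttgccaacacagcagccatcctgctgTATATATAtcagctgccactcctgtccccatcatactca
Crygb, chr1:65082291-65082440, minus strand: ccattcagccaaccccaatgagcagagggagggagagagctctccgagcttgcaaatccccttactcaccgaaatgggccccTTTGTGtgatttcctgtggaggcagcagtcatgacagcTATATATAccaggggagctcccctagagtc
Crygd, chr1:65063441-65063590, minus strand: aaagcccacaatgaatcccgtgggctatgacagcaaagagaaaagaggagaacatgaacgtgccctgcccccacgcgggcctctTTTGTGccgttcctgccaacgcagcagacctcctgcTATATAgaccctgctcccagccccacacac
Crygf, chr1:65926372-65926521, plus strand: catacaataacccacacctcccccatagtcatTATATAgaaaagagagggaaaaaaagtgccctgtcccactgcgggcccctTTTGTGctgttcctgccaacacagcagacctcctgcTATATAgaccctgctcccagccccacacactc
All 4 windows hold both motifs. TATATA starts between 39 and 28 bases before the transcript start in each, with a second match farther out in Crygf, and 2 of its matches overlap in Cryga and in Crygb. Of 32851 promoter windows of the same length, 2.97% hold TATATA, 9.20% hold TTTGTG and 0.429% hold both. A match describes the letters only.

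Over all genes the groups differed widely, and bright genes that missed the shared set were among those called. Ndufs7 averaged 12.68 in C57BL/6 and 10.78 in mixed-background eyes, and Ttr 12.33 and 11.21. At an adjusted p under 0.05, 4537 of 12393 genes (36.6%) were called: 2674 (21.6%) higher and 1863 (15.0%) lower in C57BL/6. At an unadjusted p under 0.05 the count was 5713. The median called gene differed by 0.99, and 2235 called genes differed by at least 1. The 4 C57BL/6 values lay all above or all below the 3 mixed-background values for 5590 genes (45.1%), of which 3250 (26.2%) were above and 2340 (18.9%) below. The median difference over all genes was 0.15, so a small positive value is close to the bulk of genes. With Xist as a covariate, 2611 genes were called, 2324 of them shared with the main calls. The Gapdh difference as a covariate left 3384.

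The largest differences included muscle, secretory, blood and cell-surface genes. The 15 largest in each direction were taken from called genes that did not overlap and whose brighter group mean exceeded 6.75, the median level of all probe sets. The higher set ranged from 5.30-fold up and holds 14 named genes, and the lower set from 7.39-fold. In the higher set 11 genes were at or below that median level in mixed-background eyes, and in the lower set 12 were so in C57BL/6 eyes. Genes at or below it are called dim here.

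Among genes higher in C57BL/6, Commd9, a member of the COMM domain family, read 11.23, 10.48, 10.74 and 9.87 against 5.70, 9.23 and 5.99. Its difference was 3.61 ± 0.78 (adjusted p = 0.00763), and mixed replicate 2 lay far above the other mixed-background arrays. Polrmt, the RNA polymerase of mitochondria, read 9.66, 9.90, 10.64 and 9.18 against 6.70, 7.32 and 6.51, a difference of 3.0 ± 0.34 (adjusted p = 0.000801). The platelet receptor gene Gp1bb differed by 2.86, the muscle cytochrome oxidase subunit Cox8b by 2.83, the phosphatase Lhpp by 2.81 and Znrd2 by 2.62. The other 8, from Sh2b2 (2.51) through Pitpnm2, Mios, Reep6, Pcsk1n, Prtn3 and Hps4 to Nckipsd (2.41), lay close together. Reep6 is a rod endoplasmic reticulum gene, Pcsk1n an inhibitor of a prohormone convertase, Prtn3 a neutrophil granule protease and Hps4 a gene of melanosome and platelet granule formation. Commd9 was not called with Xist as a covariate (2.96, adjusted p = 0.0769), and the other 13 were.

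Among genes lower in C57BL/6, Pfdn2, a subunit of the prefoldin chaperone, read 5.47, 6.00, 4.96 and 5.54 against 9.62, 8.94 and 9.22. Its difference was -3.77 ± 0.26 (adjusted p = 0.000492), the largest among the lower genes. Dlx2, a homeobox gene of retinal and other neurons, read 6.10, 6.24, 5.31 and 3.78 against 9.12, 8.63 and 9.31 (-3.66 ± 0.54, adjusted p = 0.00165). Myog, the myogenin that drives muscle differentiation, read 6.46, 5.18, 4.59 and 5.87 against 9.04, 8.78 and 9.71 (-3.65 ± 0.43, adjusted p = 0.000847). Both groups stood well apart in all 3 genes. The actin-binding profilin Pfn1 (-3.51), the Golgi mannosidase Man1a (-3.23), the peptidase Prcp (-3.22), the tetraspanin Cd9 (-3.17) and Tmem80 (-3.13) followed. The receptors Acvr1 (-3.11) and Il1r1 (-3.02), the lysosomal protease Lgmn (-2.98), Lrrc58 (-2.98), the guanine nucleotide exchange factor Trio (-2.96), the disulphide isomerase Pdia4 (-2.90) and the alpha globin Hba-a2 (-2.89) closed the set. All 15 kept the call with Xist or the Gapdh difference as a covariate.

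**Figure D2:**
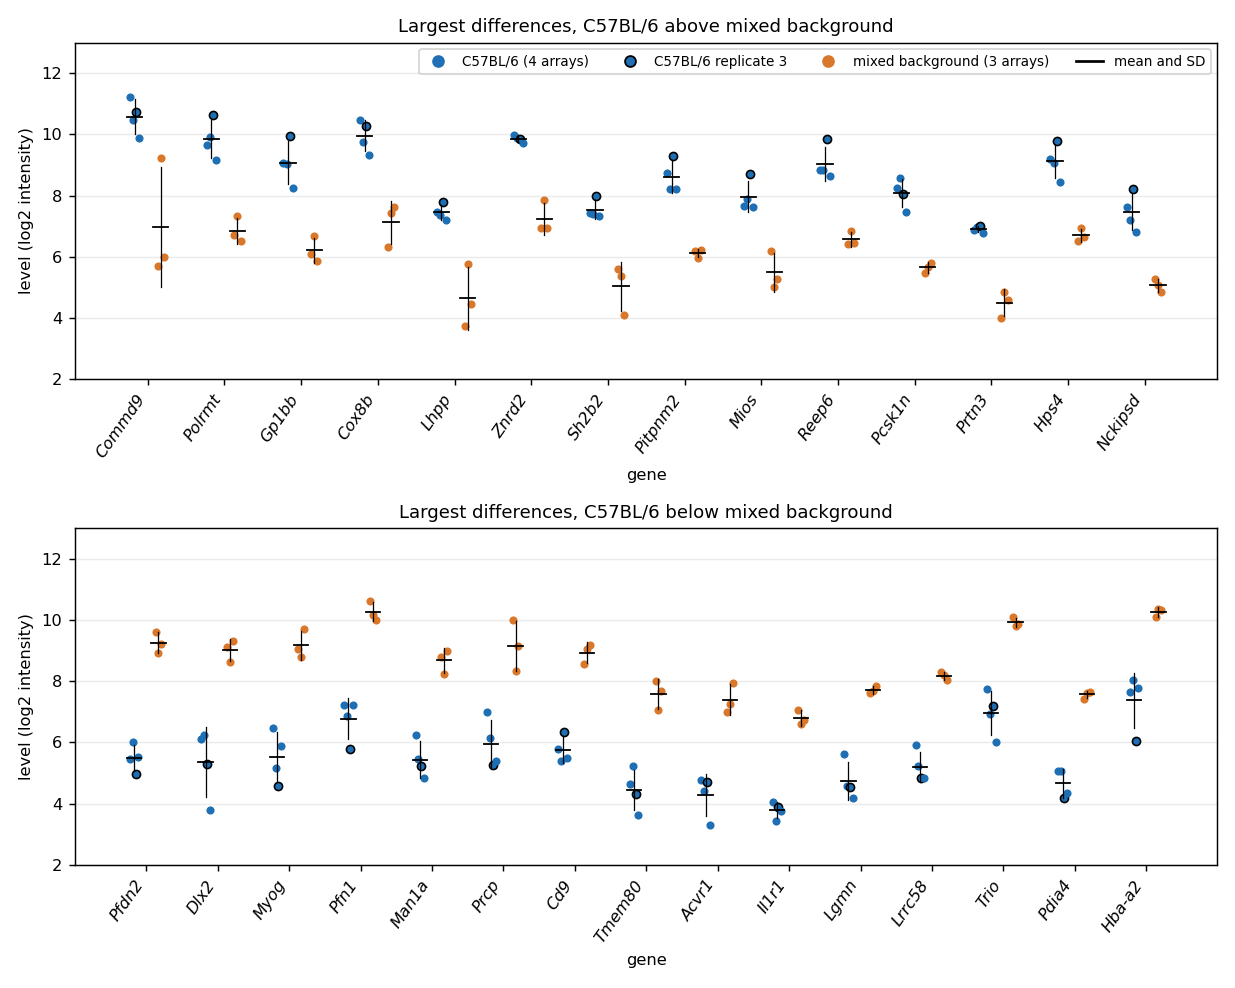
Levels (log2 intensity, y axis) of the named genes with the largest differences (x axis), C57BL/6 above in the upper panel and below in the lower panel. Points are arrays, blue for C57BL/6 (replicate 3 outlined) and orange for mixed background, and bars are the mean and SD. Pfdn2 reads 4.96 to 6.00 on the C57BL/6 arrays and 8.94 to 9.62 on the mixed-background arrays.

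Probe sets of 1 gene did not always give the same difference. For Trio a second probe set gave 0.16 ± 0.22 (adjusted p = 0.604) where the brightest gave -2.96, and for Prcp a second, dim one gave 0.18 ± 0.19 beside -3.22. In contrast, the 2 probe sets of Polrmt gave 3.0 and 2.18, those of Gp1bb 2.86 and 2.73, and the 3 of Commd9 3.61, 2.14 and 1.01. Dim further probe sets of Sh2b2, Pitpnm2, Man1a, Pdia4 and Acvr1 gave 0.34, -0.26, -0.44, 0.01 and -0.17 and were not called. Acvr1 had another that was called at -1.75. Over all called genes, 1471 further probe sets of 1049 genes lay above the median level. Of these, 1148 (78.0%) had the same sign, 750 of them called, and 107 (7.27%) were called with the opposite sign. For genes called at a difference of 2 or more, 39 of 43 such probe sets (90.7%) had the same sign and 1 was called with the opposite sign. When each probe set was tested by itself, 7279 of 20380 (35.7%) were called.

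Genes with opposite calls included well known ones, chosen after their values were seen. Dicer1, the nuclease that makes microRNAs, read 10.43 to 10.61 in C57BL/6 and 9.13 to 9.50 in mixed-background eyes with its brightest probe set (1.17 ± 0.16, adjusted p = 0.00117). A second probe set read 9.20 to 9.72 against 10.42 to 10.67 (-1.07 ± 0.18, adjusted p = 0.00269). Neither pair of groups overlapped. For the iron oxidase gene Cp, 6 probe sets were called higher, by 0.68 to 1.84, and a lone one lower (-1.49). The translation factor gene Eif3c likewise had 3 called higher, by 1.02 to 1.39, and 1 lower (-2.07). Averaged over its probe sets, Dicer1 differed by 0.05 (adjusted p = 0.787) and Eif3c by 0.40 (adjusted p = 0.0691). Which probe set matched which transcript form or strain sequence was not tested, and the sequence under each probe was not used here.

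**Figure D3:**
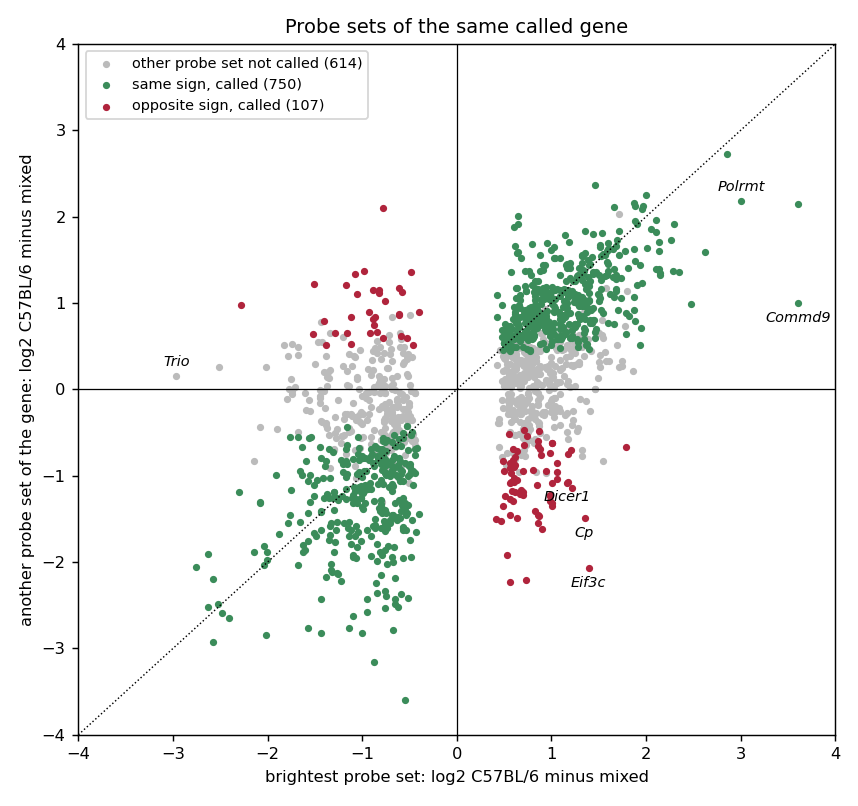
Differences (log2, C57BL/6 minus mixed background) of the brightest probe set of each called gene (x axis) and of its other probe sets above the median level (y axis), 1 point per further probe set. Green points (750) were called with the same sign, red points (107) with the opposite sign and grey points not called, the dotted line marks equal differences, and Trio, Dicer1, Cp and Eif3c lie far from it.

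Crystallins, the main product of lens fibres, were bright in both groups and few passed the test. All 14 measured crystallins lay above the median level, between 10.17 and 13.89. Of these, 1 (7.14%) was called higher and 0 lower, beside 21.6% and 15.0% of all genes, with a median difference of 0.11. Crybb2, the beta B2 crystallin that accumulates after birth, read 12.49, 12.39, 11.99 and 12.23 in C57BL/6 and 10.17, 11.22 and 11.63 in mixed-background eyes. It was called higher by 1.27 ± 0.32 (adjusted p = 0.0151), though not with Xist as a covariate (1.29, adjusted p = 0.0773). Cryaa, the alpha A crystallin and a chaperone of fibre cells, read 12.61, 12.64, 11.40 and 12.99 against 13.14, 13.21 and 13.07. Its groups did not overlap, replicate 3 was lowest in C57BL/6, and the difference of -0.73 ± 0.34 did not pass (adjusted p = 0.126). Cryba2 gave -0.60 ± 0.33 (adjusted p = 0.187), again with replicate 3 lowest at 11.49. The largest deposited intensity on the 7 arrays was 17994 before the log2. Whether probe sets as bright as those of the crystallins can still show a difference was not tested.

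Of 18 other fibre genes measured, 3 (16.7%) were called higher and 4 (22.2%) lower, near the shares of 21.6% and 15.0% over all genes, with a median of -0.12. Gja3, the connexin of fibre gap junctions, read 5.21, 5.20, 4.20 and 5.46 against 7.81, 7.17 and 7.52 (-2.48 ± 0.31, adjusted p = 0.000934). The ephrin receptor Epha2, needed for fibre alignment, gave -1.62 ± 0.19 (adjusted p = 0.00081) and was dim by both group means (4.38 and 6.0). Hsf4, the heat shock factor that drives fibre maturation, was higher by 1.70 ± 0.23 (adjusted p = 0.00123), and the small heat shock protein Hspb1 by 1.97 ± 0.28 (adjusted p = 0.00133). The remaining 3 calls were Plaat3 (-2.13), a phospholipase of organelle breakdown, the water channel Mip (-1.01) and the fibre nuclease Dnase2b (0.77). Mip was not called without mixed replicate 2 (-0.88, adjusted p = 0.0544), Dnase2b not without mixed replicate 1 (0.62, adjusted p = 0.0586), and Mip and Plaat3 not with Xist as a covariate. The list mean was 7.91 on C57BL/6 replicate 3 and 8.31 to 8.55 on the other 6 arrays.

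Of 18 lens epithelium genes, 7 (38.9%) were called higher and 5 (27.8%) lower, beside 21.6% and 15.0% of all genes, with a median of 0.18. Mab21l1, needed for lens placode growth, was lower by -2.35 ± 0.29 (adjusted p = 0.000922). The capsule genes Lama1, a laminin chain, and Col4a2, a type IV collagen chain, were higher by 1.59 ± 0.17 and 0.89 ± 0.17 (adjusted p = 0.000704 and 0.00416). The eye field homeobox gene Six3 was higher by 1.15 ± 0.20 (adjusted p = 0.00277), but the mean of its probe sets was not (0.23, adjusted p = 0.285). With Xist as a covariate Col4a2 was not called (0.70, adjusted p = 0.0547), and in the list 3 genes were called higher and 5 lower.

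Of 34 photoreceptor genes measured, 14 (41.2%) were called higher in C57BL/6, 1 (2.94%) lower and 19 neither, beside 21.6% and 15.0% of all genes. Differences were positive for 30 of the 34, as for 7384 of all 12393 genes, and the median was 0.64. Nrl, the transcription factor that commits cells to the rod fate, read 10.04, 10.76, 10.78 and 10.50 in C57BL/6 and 9.07, 9.19 and 9.26 in mixed-background eyes (1.35 ± 0.21, adjusted p = 0.00189). Gnat2, the cone transducin, read 8.57, 8.53, 8.50 and 8.56 against 7.62, 7.75 and 7.37 (0.96 ± 0.15, adjusted p = 0.00202). The groups stood apart in both genes, and Gnat2 was almost level across the C57BL/6 arrays. Guca1a, the activator of photoreceptor guanylate cyclase, was higher by 1.53 ± 0.21 (adjusted p = 0.00125), and Aipl1, the chaperone of cyclic nucleotide phosphodiesterase, by 1.92 ± 0.32 (adjusted p = 0.0025).

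Some cone genes were called higher and others were not. The cone phosphodiesterase Pde6c differed by 1.78 ± 0.40 (adjusted p = 0.00933) and the cone arrestin Arr3 by 1.40 ± 0.24 (adjusted p = 0.00284), although Arr3 was dim at 2.74 to 4.74 throughout. The cone opsins Opn1mw and Opn1sw gave 0.02 and 0.11 (adjusted p = 0.949 and 0.652), and Gnb3, Pde6h and Thrb gave 0.23, 0.82 and 0.40 (adjusted p = 0.243, 0.0621 and 0.169). The early regulators were flatter by their brightest probe sets: Crx gave 0.44 ± 0.19 (adjusted p = 0.108) and Otx2 -0.42 ± 0.17 (adjusted p = 0.0798). A second Crx probe set, also above the median level, gave 0.67 ± 0.22 and was called (adjusted p = 0.042 over all probe sets). Sag, the rod arrestin, gave 0.83 ± 0.29 (adjusted p = 0.0509), with mixed replicate 3 (9.89) above C57BL/6 replicate 1 (9.78). It was called without C57BL/6 replicate 1 (0.97, adjusted p = 0.0381) or mixed replicate 3 (1.10, adjusted p = 0.0289). Gnb1, a G protein subunit present in many cells, was the lower call (-0.49 ± 0.14, adjusted p = 0.0242). It was lost without C57BL/6 replicate 1 (adjusted p = 0.0567) and without mixed replicates 1, 2 or 3 (adjusted p = 0.0587, 0.0713 and 0.0823). It was also lost with Xist (-0.42, adjusted p = 0.164) or the Gapdh difference (-0.46, adjusted p = 0.0666) as a covariate. The same held without the 2 C57BL/6 arrays low in Xist (-0.44, adjusted p = 0.0968). Another Gnb1 probe set, also above the median level, gave -1.75 ± 0.18 and was called (adjusted p = 0.000707 over all probe sets). A dim Gnb1 probe set gave -0.36 ± 0.52 and was not called (adjusted p = 0.623). Over the whole list, 9 genes were called higher and 0 lower with Xist as a covariate, 10 and 1 with the Gapdh difference and 13 and 2 without C57BL/6 replicate 3, and these counts can include genes not called in the main comparison. Pde6c was not called with either covariate (1.08, adjusted p = 0.108, and 1.43, adjusted p = 0.0522). The list mean was 7.24 to 7.64 in C57BL/6 and 6.72 to 6.91 in mixed-background eyes.

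Retinal progenitor and Mueller glia genes gave 1 higher (4.35%) and 5 lower (21.7%) calls of 23, beside 21.6% and 15.0% of all genes. The other 17 were not called. Differences were positive for 11 and negative for 12, with a median of -0.15. The Notch ligand Dll1 read 6.90, 6.73, 6.60 and 6.42 against 8.87, 9.11 and 8.46 (-2.15 ± 0.20, adjusted p = 0.000552). The Notch target Hes1, a repressor that keeps progenitors undifferentiated, read 5.60, 5.64, 5.89 and 5.81 against 7.65, 7.48 and 7.82 (-1.92 ± 0.16, adjusted p = 0.000552). The groups were far apart in both. The Wnt antagonist Sfrp2 was lower as well (-1.23 ± 0.20, adjusted p = 0.00232), and the eye field gene Rax was the higher call (1.0 ± 0.16, adjusted p = 0.00217). Ccnd1, bright on all arrays, differed by 0.08 (adjusted p = 0.688).

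Of 32 markers of the inner retina, 7 (21.9%) were called higher, close to the 21.6% of all genes, and 9 (28.1%) lower, beside 15.0%, with a median of -0.10. With Xist as a covariate 3 and 4 were called. Thy1, a surface protein of ganglion cells, was higher by 1.55 ± 0.20 (adjusted p = 0.00105), and the neurofilament gene Nefh by 1.24 ± 0.23 (adjusted p = 0.00381). The GABA-synthesising enzyme Gad2 was lower by -1.74 ± 0.25 (adjusted p = 0.00158), and Sox4, a transcription factor of newborn neurons, by -1.29 ± 0.24 (adjusted p = 0.00423). The GABA genes Gad1 and Slc32a1 of the same list were instead called higher, by 1.11 ± 0.25 and 1.39 ± 0.27 (adjusted p = 0.00935 and 0.00457).

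Pigment cell genes resembled the photoreceptor list in direction: 8 of 19 (42.1%) were called higher and 1 (5.26%) lower, beside 21.6% and 15.0% of all genes. Their median was 0.59. Dct, an enzyme of eumelanin synthesis, read 11.51, 11.50, 11.89 and 11.59 against 10.71, 10.91 and 10.64 (0.87 ± 0.16, adjusted p = 0.00433). The retinol dehydrogenase Rdh5 was higher by 1.13 ± 0.18 (adjusted p = 0.00234) and the thyroxine carrier Ttr by 1.12 ± 0.20 (adjusted p = 0.00366). The neural crest factor Sox10 was higher by 2.35 ± 0.49 (adjusted p = 0.0065) and spread widely within C57BL/6, from 8.29 to 10.52. Tyr, the tyrosinase that starts melanin synthesis, was the lower call, with 8.24, 8.49, 8.01 and 8.04 against 9.07, 8.81 and 9.22 (-0.84 ± 0.18, adjusted p = 0.00819). Its other probe sets gave -1.84 ± 0.26 (adjusted p = 0.00153) at a dim level and 0.05 ± 0.25 (adjusted p = 0.899). With Xist as a covariate Sox10 (1.37, adjusted p = 0.0662) and Tyr (-0.73, adjusted p = 0.0769) were not called, and in the list 3 genes were called higher and 1, not Tyr, lower.

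**Figure D4:**
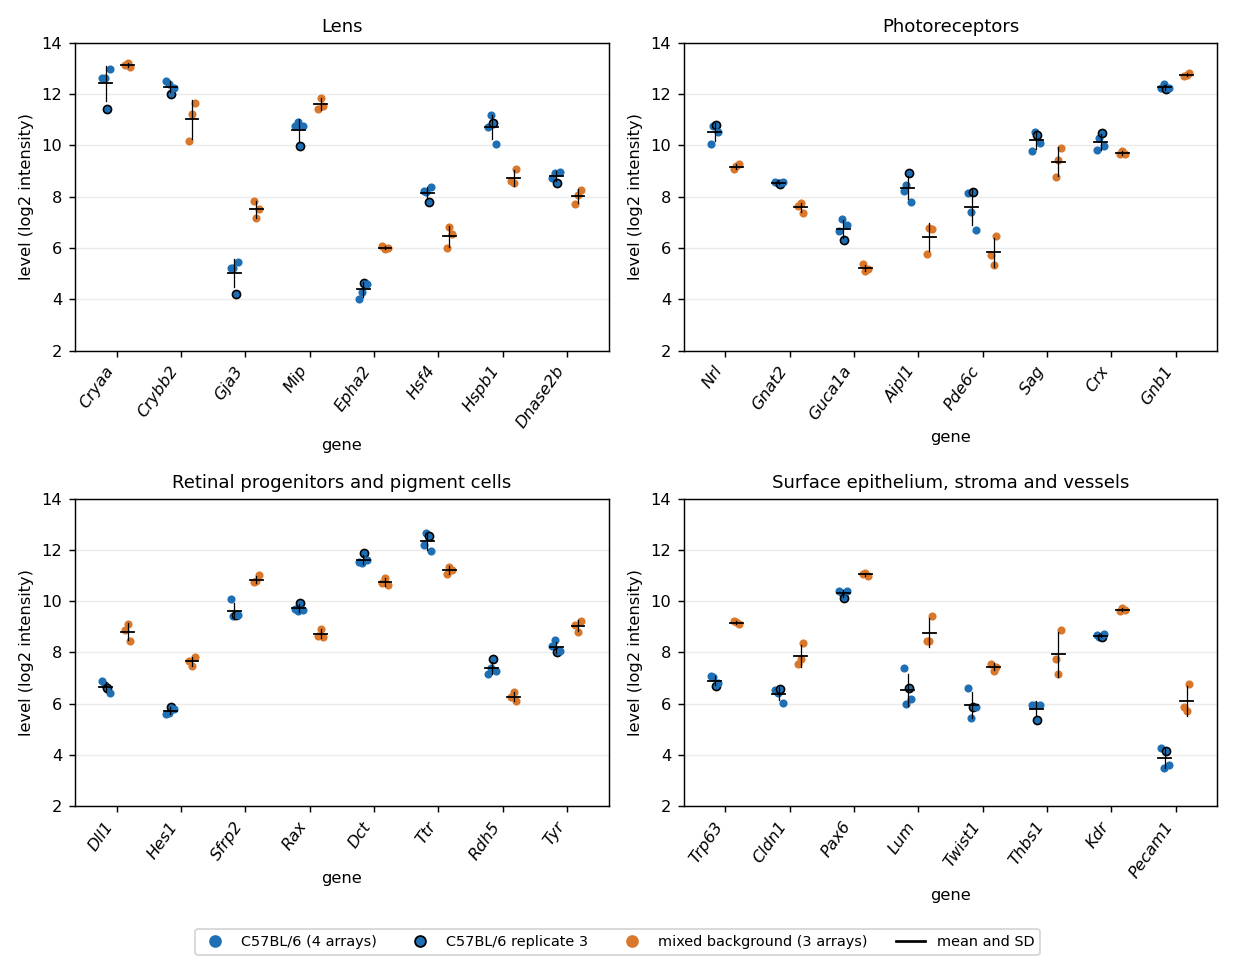
Levels (log2 intensity, y axis) of selected named genes (x axis) of lens, photoreceptors, retinal progenitors and pigment cells, and surface, stroma and vessels. Points are arrays, blue for C57BL/6 (replicate 3 outlined) and orange for mixed background, and bars are the mean and SD. Nrl is higher on every C57BL/6 array (10.04 to 10.78) than on any mixed-background array (9.07 to 9.26), and Dll1, Trp63 and Pecam1 are lower.

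Corneal and conjunctival epithelium genes gave 1 higher (3.12%) and 9 lower (28.1%) calls of 32, beside 21.6% and 15.0% of all genes. Their median was -0.33. Trp63, the p63 factor of stratified epithelium stem cells, read 7.07, 7.04, 6.70 and 6.80 against 9.21, 9.17 and 9.10 (-2.26 ± 0.16, adjusted p = 0.000492). Its replicates were tight and the groups far apart, while its 2 other probe sets were dim and gave -0.37 and 0.06. The tight junction gene Cldn1 was lower by -1.50 ± 0.23 (adjusted p = 0.00201), but not as the mean of its probe sets (-0.34, adjusted p = 0.159). Pax6, a master regulator of eye development, was lower by -0.74 ± 0.15 (adjusted p = 0.00529). The higher call was Aldh3a1, the aldehyde dehydrogenase that absorbs ultraviolet light in the cornea (1.17 ± 0.27, adjusted p = 0.0107), and it was lost with Xist (0.94, adjusted p = 0.101) or the Gapdh difference (1.02, adjusted p = 0.0537) as a covariate and without the 2 C57BL/6 arrays low in Xist (0.98, adjusted p = 0.0618). The cornified skin list held 0 higher calls and 1 lower, Trp63 again, among 28, and its median of 0.69 was 0.14 without C57BL/6 replicate 3.

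In corneal stroma and periocular mesenchyme 6 of 37 genes (16.2%) were called higher and 11 (29.7%) lower, beside 21.6% and 15.0% of all genes, with a median of -0.31. With Xist as a covariate the counts were 0 and 12. Lumican (Lum), the proteoglycan that spaces corneal collagen, read 7.40, 5.99, 6.62 and 6.20 against 8.44, 8.45 and 9.41 (-2.21 ± 0.37, adjusted p = 0.00262). The mesenchymal factor Twist1 gave -1.49 ± 0.27 (adjusted p = 0.00334), and the matrix thrombospondins Thbs1 and Thbs2 -2.12 ± 0.37 and -1.83 ± 0.33 (adjusted p = 0.00304 and 0.00348). Thbs2 was not called as the mean of its probe sets (-0.66, adjusted p = 0.0993). The stroma genes named here had the smallest p of their list and all were lower, while its 6 higher calls reached 1.53. Of 31 genes of endothelium and pericytes, 5 (16.1%) were called higher and 9 (29.0%) lower, with a median of -0.24. The counts were 0 and 7 with Xist as a covariate and 3 and 9 without C57BL/6 replicate 3. The VEGF receptor Kdr read 8.70, 8.60, 8.60 and 8.72 against 9.61, 9.73 and 9.65 (-1.01 ± 0.14, adjusted p = 0.00126). The adhesion gene Pecam1 was lower by -2.24 ± 0.31 (adjusted p = 0.00123), and the transcription factor Ets1 and the adhesion gene Esam by -0.96 and -1.0. Pecam1 was dim by both group means (3.87 and 6.11). The vessel genes named here had the smallest p of their list and all were lower, while its 5 higher calls reached 1.73. Esam was not called with Xist as a covariate (-1.0, adjusted p = 0.058).

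Of 47 muscle genes, 8 (17.0%) were called higher and 4 (8.51%) lower, below the shares of 21.6% and 15.0% over all genes, with a median of 0.15. Without C57BL/6 replicate 3 the counts were 5 and 4, and with either covariate 3 and 3. The differentiation factors Myog and Myf6 (-1.75 ± 0.25, adjusted p = 0.00139) were lower, while the oxidative gene Cox8b and the acetylcholine receptor subunit Chrnd (0.84 ± 0.17, adjusted p = 0.00609, dim at 3.21 to 4.45) were higher. Mean levels of the list overlapped, at 8.58 to 9.19 in C57BL/6 and 8.33 to 9.28 in mixed-background eyes. Cartilage and bone genes gave 1 higher (5.56%) and 3 lower (16.7%) calls among 18, and adipocyte genes 1 (6.67%) and 2 (13.3%) among 15. The lacrimal and Harderian gland list gave 4 higher (23.5%, near the 21.6% of all genes) and 0 lower calls among 17. Only 3 of the 17 lay above the median level. Amylase Amy1 (1.14 ± 0.18, adjusted p = 0.00214), the acinar factor Bhlha15 (1.49 ± 0.25, adjusted p = 0.00256) and the secreted carbonic anhydrase Car6 (1.53 ± 0.35, adjusted p = 0.0101) were 3 of the 4, and Car6 was lost with Xist as a covariate (1.11, adjusted p = 0.11).

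Of 27 red cell genes, 4 (14.8%) were called higher and 2 (7.41%) lower, below the shares of 21.6% and 15.0% over all genes, with a median of 0.20. The alpha globin Hba-a2 read 7.66, 8.04, 6.05 and 7.77 in C57BL/6 and 10.09, 10.37 and 10.34 in mixed-background eyes, while its near-identical copy Hba-a1 differed by -0.12 (adjusted p = 0.63). The beta globin Hbb-b2 read 10.99, 11.42, 11.03 and 11.03 against 10.64, 10.63 and 10.93 (0.38 ± 0.17, adjusted p = 0.115). Globin copies share most of their sequence, so their split between probe sets is uncertain. The red cell enzyme Bpgm was lower by -1.28 ± 0.21 (adjusted p = 0.00223). Ermap, an erythroid surface protein, was higher by 1.85 ± 0.37 (adjusted p = 0.00538), with C57BL/6 replicate 4 lowest at 4.85, and was lost with Xist as a covariate (1.47, adjusted p = 0.063).

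Macrophage and microglia genes gave 5 higher and 5 lower calls of 30 (16.7% each), near the shares of 21.6% and 15.0% over all genes, with a median of 0.25. The counts were 5 and 3 without C57BL/6 replicate 3 and 1 and 4 with Xist as a covariate. Csf1r, the growth factor receptor that macrophages need, read 11.12, 10.62, 11.49 and 10.04 against 8.76, 8.80 and 8.87 (2.01 ± 0.31, adjusted p = 0.00195). The complement gene C1qb was higher by 1.69 ± 0.32 (adjusted p = 0.00436), and Lgmn and the leukocyte tetraspanin Cd53 (-0.86 ± 0.20, adjusted p = 0.00961) were lower. C1qa, whose protein joins that of C1qb in the same complex and which was named after its values were seen, was lower by -1.35 ± 0.47 (adjusted p = 0.0494). It was lost without C57BL/6 replicate 2 or 3 (adjusted p = 0.0969 and 0.0664), without mixed replicate 1, 2 or 3 (adjusted p = 0.0943, 0.0849 and 0.166) and with either covariate. C1qb was lost with Xist as a covariate (1.20, adjusted p = 0.0546). Neutrophil and lymphocyte lists gave 1 higher call each, of 17 and 16 (5.88% and 6.25%), and their defining genes were almost all dim.

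The MHC list, whose genes differ in sequence between strains, gave 2 higher and 2 lower calls of 21 (9.52% each). The shares over all genes were 21.6% and 15.0%. Its median was 0.16. B2m, the shared light chain of class I molecules, read 10.61, 10.38, 10.37 and 10.32 against 11.10, 11.10 and 11.57 (-0.83 ± 0.18, adjusted p = 0.00685). The class II gene H2-Ab1 was higher by 1.17 ± 0.29 (adjusted p = 0.0139), but not without mixed replicate 2 (0.92, adjusted p = 0.0519), with either covariate or as the mean of its probe sets (0.24, adjusted p = 0.373). The class I-like gene H2-M3 was lower by -0.81 ± 0.21 (adjusted p = 0.0159), and not called without mixed replicate 3 (-0.65, adjusted p = 0.0652). H2-K1 overlapped between the groups, with 7.12 to 9.06 in C57BL/6 and 6.59 to 8.69 in mixed-background eyes. Interferon response genes gave 6 higher (19.4%) and 2 lower (6.45%) calls of 31, no more than the shares over all genes. Their median was 0.30, and only 5 genes lay above the median level. Oas2, Oasl2 and Ifih1, sensors of viral RNA, were higher by 0.89, 1.33 and 1.29 (adjusted p = 0.00566, 0.00763 and 0.0107), and none of the 3 was called with Xist as a covariate (adjusted p = 0.0532, 0.085 and 0.0903). Ifih1 was also lost with the Gapdh difference (0.97, adjusted p = 0.0545).

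A list of genes known to vary in sequence or level between laboratory strains gave 11 higher and 4 lower calls of 46, shares of 23.9% and 8.70% beside 21.6% and 15.0% of all genes. Lrrc57 read 7.15, 6.81, 7.07 and 6.94 against 8.68, 8.58 and 8.58 (-1.62 ± 0.15, adjusted p = 0.000552). The protease inhibitor Serpina3n read 6.40, 5.86, 6.83 and 5.43 against 3.51, 3.15 and 3.98 (2.58 ± 0.34, adjusted p = 0.00115). The sialyltransferase St6galnac2 (1.11 ± 0.15, adjusted p = 0.00122) and the cytochrome P450 gene Cyp2d22 (1.53 ± 0.27, adjusted p = 0.0034) were higher too. A second St6galnac2 probe set, also above the median level, gave 0.25 ± 0.22 and was not called (adjusted p = 0.414). Nnt, the mitochondrial transhydrogenase that is defective in 1 substrain of C57BL/6, read 10.92, 10.52, 11.24 and 11.29 against 11.36, 11.49 and 11.30 (-0.39 ± 0.21, adjusted p = 0.18). A second Nnt probe set gave -0.96 ± 0.29 and was called (adjusted p = 0.0311 over all probe sets). The Nnt levels above were bright in both groups. Serpina3n was dim by both group means (6.13 and 3.55), and Cyp2d22 was dim by its mean in mixed-background eyes (6.13).

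**Figure D5:**
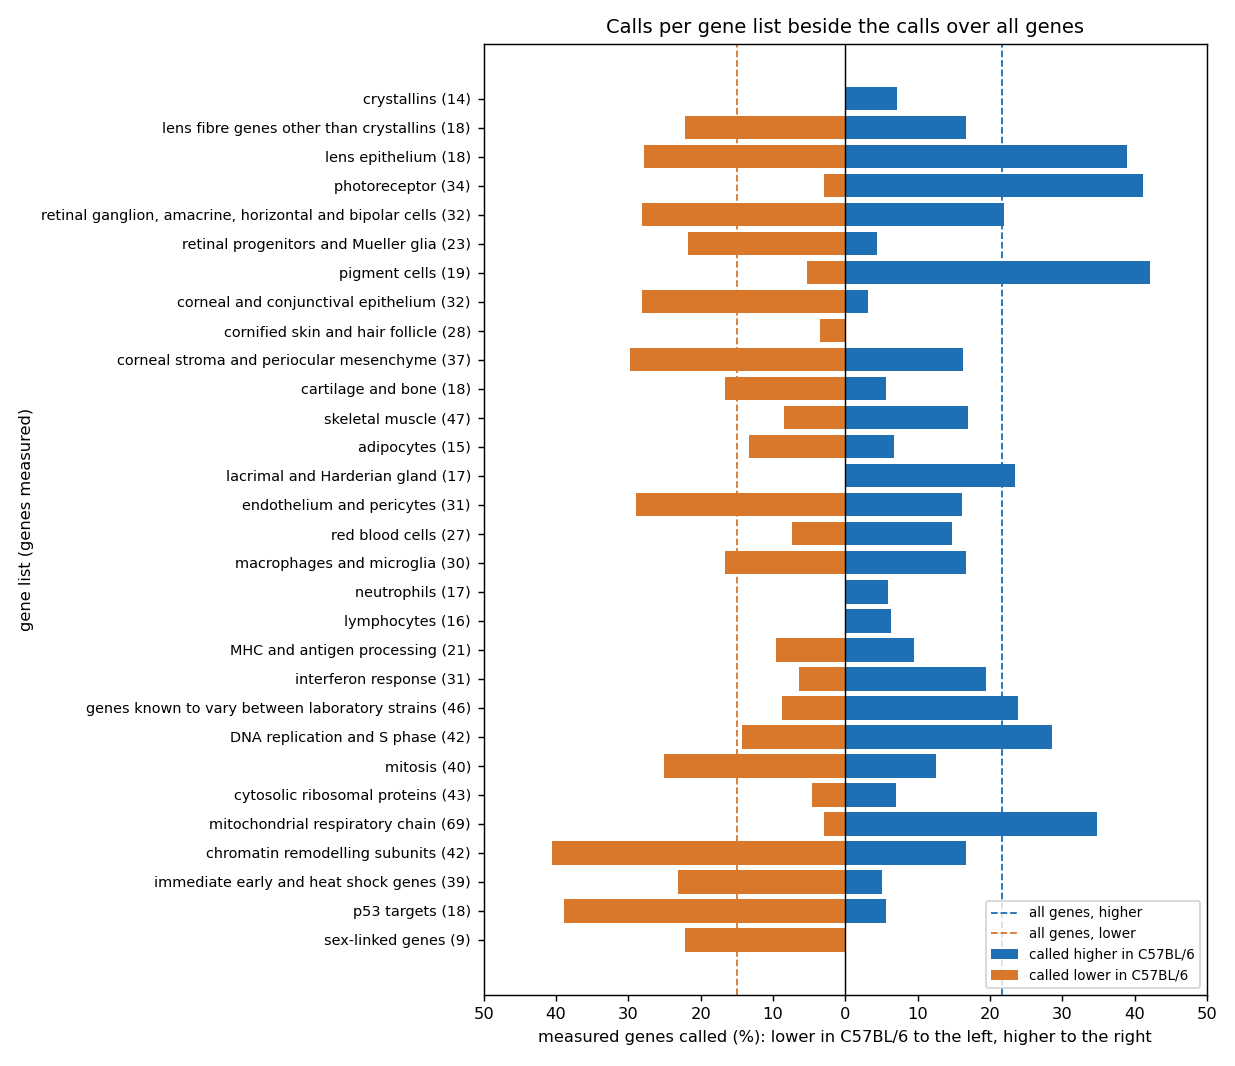
Share of measured genes called (%, x axis) in each gene list (y axis, number measured in brackets), higher in C57BL/6 to the right in blue and lower to the left in orange. Dashed lines mark the shares over all genes, 21.6% and 15.0%. Photoreceptor, pigment and respiratory chain genes extend past the line on the right, and chromatin and p53 target genes on the left.

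Genes of cell maintenance also differed. Of 69 genes of the mitochondrial respiratory chain, 24 (34.8%) were called higher and 2 (2.9%) lower, beside 21.6% and 15.0% of all genes. Their median was 0.31. The list mean was 11.06 to 11.28 in C57BL/6 and 10.67 to 10.95 in mixed-background eyes. Ndufs7, a complex I subunit, read 12.70, 12.74, 13.03 and 12.24 against 10.52, 11.00 and 10.83 (1.90 ± 0.22, adjusted p = 0.000801). Cyc1, the cytochrome c1 of complex III, was higher by 1.35 ± 0.15 (adjusted p = 0.000718), and Ndufa10 and Sdhb by 1.21 and 1.15. With Xist as a covariate 10 genes of the list were called higher and 0 lower, and with the Gapdh difference 22 and 1. Cytosolic ribosomal proteins, with 3 higher (6.98%) and 2 lower (4.65%) calls of 43 and a median of 0.10, were called rarely.

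Cell cycle genes were called in both directions too. The DNA replication and S phase list gave 12 higher (28.6%) and 6 lower (14.3%) calls of 42, beside 21.6% and 15.0% of all genes. Its median was 0.23. Pold1 and Pole, the catalytic subunits of replicative polymerases, were higher by 2.30 ± 0.26 and 1.34 ± 0.16 (adjusted p = 0.000801 and 0.0009), and the origin factor Mcm10 by 1.28 ± 0.17 (adjusted p = 0.00124). Dut, the enzyme that keeps uracil out of DNA, read 9.50, 9.46, 9.18 and 9.19 against 11.16, 11.09 and 11.12 (-1.79 ± 0.15, adjusted p = 0.000552). A second Dut probe set, also above the median level, gave 0.39 ± 0.17 and was not called (adjusted p = 0.112). Rpa3 of the same list was lower by -2.03 ± 0.22 (adjusted p = 0.000718). The mitosis list gave 5 higher (12.5%) and 10 lower (25%) calls of 40, with a median of -0.09. The ubiquitin ligase partner Ube2c (-1.55), the kinase Aurkb (-1.09), the condensin Smc2 (-1.28) and Cks2 (-1.38) were lower, with adjusted p between 0.00118 and 0.00263. These mitosis genes had the smallest p of their list and all were lower, while its 5 higher calls reached 1.45. Whether the lists differ from each other was not tested.

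Chromatin remodelling genes, the subject of both experiments, were called lower 17 times (40.5%) and higher 7 times (16.7%) in 42, with a median of -0.26. The shares over all genes were 15.0% lower and 21.6% higher. Baz2a, a partner of Snf2h in nucleolar silencing, read 8.61, 8.57, 8.49 and 7.88 against 10.85, 10.20 and 10.19 (-2.03 ± 0.25, adjusted p = 0.0009). Arid1a, a SWI/SNF subunit, gave -1.39 ± 0.23 (adjusted p = 0.00239) and the deacetylase Hdac2 -1.32 ± 0.20 (adjusted p = 0.00188). The ATPase Ruvbl2 was higher by 1.18 ± 0.18 (adjusted p = 0.00167). Smarca5, which encodes Snf2h, read 9.45, 9.65, 9.46 and 9.02 against 9.84, 10.01 and 9.79, and its difference of -0.48 ± 0.18 did not pass (adjusted p = 0.0698). Smarca4, which encodes Brg1, read 9.95, 10.07, 10.68 and 9.57 against 9.16, 8.91 and 8.91 (1.08 ± 0.25, adjusted p = 0.0107). A second Smarca4 probe set gave -0.21 ± 0.23 (adjusted p = 0.511), and the call was lost for the mean of both (0.43, adjusted p = 0.0692) and with Xist as a covariate (0.82, adjusted p = 0.111). With that covariate 2 genes of the list were called higher and 9 lower.

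Stress genes were mostly lower where called. Immediate early and heat shock genes gave 2 higher (5.13%) and 9 lower (23.1%) calls of 39, beside 21.6% and 15.0% of all genes. Their median was -0.33. Myc read 3.84 to 4.05 in C57BL/6 against 5.90 to 6.89 (-2.43 ± 0.23, adjusted p = 0.000552), and was dim by both group means (3.96 and 6.39). Klf6 read 9.43, 9.37, 8.65 and 8.73 against 11.48, 11.20 and 11.67 (-2.40 ± 0.24, adjusted p = 0.000632), and the phosphatase Dusp1 was lower by -0.85 ± 0.19 (adjusted p = 0.00971). Targets of p53 gave 1 higher (5.56%) and 7 lower (38.9%) calls of 18, with 15 negative differences and a median of -0.42. Plk2, Ei24, Pmaip1 and Trp53inp1 differed by -1.43, -0.82, -1.39 and -0.79. The higher call was Cdkn1a, the p21 inhibitor of cyclin-dependent kinases (0.89 ± 0.23, adjusted p = 0.0167, named after its value was seen). It was lost without mixed replicate 1 (0.77, adjusted p = 0.0733) or 2 (0.86, adjusted p = 0.0551), and with Xist (0.73, adjusted p = 0.135) or the Gapdh difference (0.61, adjusted p = 0.0698) as a covariate, and without the low-Xist arrays (0.72, adjusted p = 0.0567).

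Sex-linked genes followed single arrays. Xist gave a difference of -3.99 ± 1.50 that did not pass (adjusted p = 0.0671), and C57BL/6 replicates 2 and 4 read 10.73 and 10.06. Kdm5d, on the Y chromosome, read 7.09 and 6.63 on C57BL/6 replicates 1 and 3 and 1.94 to 3.31 elsewhere. Xist was called without C57BL/6 replicate 2 (-5.04, adjusted p = 0.021) or 4 (-4.81, adjusted p = 0.0407), and Kdm5d likewise (3.65, adjusted p = 0.0153, and 3.39, adjusted p = 0.0423). Eif2s3y was called without C57BL/6 replicate 2 (5.63, adjusted p = 0.0419). The X-linked genes Eif2s3x (-2.15 ± 0.26, adjusted p = 0.000867) and Kdm6a (-1.58 ± 0.30, adjusted p = 0.00477) were called lower, Kdm6a not with Xist as a covariate (-1.32, adjusted p = 0.0548). Eif2s3x read 8.58, 9.44, 8.44 and 8.44 in C57BL/6 and 10.78 to 10.96 in mixed-background eyes, so C57BL/6 replicate 4, with high Xist, was as low as the 2 arrays with low Xist. Without those 2 arrays 3725 genes were called, 3276 of them shared with the main calls.

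The groups also differed in spread. Differences between 2 arrays had an SD across genes of 0.549 to 0.696 within C57BL/6, 0.421 to 0.464 within the mixed background and 0.747 to 1.078 between the groups. Among genes above the median level the median SD was 0.24 in C57BL/6 and 0.19 in mixed-background eyes. Genes of surface epithelium and skin were among the most variable in C57BL/6, counting genes with a mean above the median level. Wfdc18 read 11.36, 3.43, 11.88 and 10.83, the keratin Krt17 6.55, 4.49, 8.49 and 8.73, and Tfcp2l1 6.14, 3.82, 6.87 and 7.97, so replicate 2 was lowest in all 3. Krt1 of the upper epidermis read 7.09, 6.34, 10.94 and 8.18 and Stfa3 9.13, 5.51, 12.13 and 10.06, with replicate 3 highest. Rabac1 and the ribosomal protein Rps9 instead dropped in replicate 3, to 5.59 and 8.91, from 8.91 to 9.54 and 11.86 to 12.47 on the other C57BL/6 arrays. Among named genes with a mean above the median level, Commd9 varied most in mixed-background eyes, followed by Alox12e, Ntmt1, the muscle genes Myl3 and Pvalb, Auts2, the interferon gene Rsad2 and A2m. Mixed replicate 3 had the highest Myl3 (8.73), Pvalb (8.43), Rsad2 (7.79) and A2m (9.19) of its group.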

How the data were processed

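The authors deposited 1 linear intensity per probe set and array, made with RMA per the submitters' processing notes; its version and any joint processing of both experiments are not given in the sources used here. The log2 was taken, with no further scaling. Of 22690 probe sets, 64 controls were left out, 20380 had 1 gene symbol in the array annotation, 691 several and 1555 none. Of the 20380, 20351 matched RefSeq by gene ID. For genes with several probe sets, the brightest over the 7 arrays represented the gene, giving 12393 genes. Median intensity per array was 100.8 to 113.2, and the number of arrays limits the precision.

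Groups were compared with limma 3.58.1 (lmFit, eBayes; R 4.3.3), two-sided, with Benjamini-Hochberg adjustment over all genes. Errors are limma's moderated SE. Tested on simulated data, 46% of 100 genes shifted by 1 log2 unit and 92% of 100 shifted by 2 were called, beside 10 genes left unshifted. Only those genes of 12393 were shifted, while 36.6% were called in the data. The simulated shares and false calls therefore need not hold for the real comparison.

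Named genes were the 15 largest differences per direction described above, up to 4 members per list with the smallest p (any member for the strain, MHC, crystallin, photoreceptor, red cell and sex-linked lists), any gene in the top 100 on all 7 arrays, the 8 most variable per group, Smarca5, Smarca4, Gapdh and Actb. Unnamed transcripts were counted only. C1qa, Cdkn1a, Cp, Dicer1, Dnase2b, Eif3c, Mcm10, Mip, Ndufa10, Plaat3, Pole and Sox4 fall outside this rule and were named after their values were seen. The same holds for Gad1 and Slc32a1. The members, the 30 lists and the rule were chosen with earlier results of these data known, and some genes are in more than 1 list. Alternatives were quantile normalisation, centring, a filter on dim genes, the mean of or all probe sets, trended robust eBayes, array weights, a replicate block, covariates, stricter thresholds and leaving out each array.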

Additional observations from a re-analysis of the deposited data

Results flagged for a closer look

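In the C57BL/6 group of 4 arrays, 17 of 184 quantities examined had 1 array far from the other 3 (gap over range above 0.829), where chance gives about 1 in 20, or 9.2. The mixed-background group of 3 was not examined. The quantities share arrays and are not independent. C57BL/6 replicate 3 was the distant array for the Gapdh 3′ minus 5′ difference (0.892) and was lowest for the means of the lens fibre list (0.846) and the ribosomal protein list (0.845). It was also lowest for Mip (0.83), Thbs1 (0.954), Rabac1 (0.84) and Rps9 (0.829) and highest for Sh2b2 (0.846) and Reep6 (0.852). Replicate 2 was highest for Gnb1 (0.86), Hbb-b2 (0.902) and Eif2s3x (0.86) and lowest for Wfdc18 (0.875). Replicate 4 was lowest for Sox4 (0.843), Ermap (0.927) and Baz2a (0.836), and replicate 1 highest for Sfrp2 (0.942).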

How the results depend on the processing

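The number of called genes (4537, of which 2674 higher and 1863 lower) stayed within 1.5 times under quantile normalisation, centring, the filter, the mean of probe sets, trended robust eBayes, array weights and the Gapdh covariate. It was 2611 (1446 higher, 1165 lower) with Xist as a covariate, 7279 when all probe sets were counted (3676 lower), 2235 (1261, 974) at a difference of at least 1 and 2507 (1488, 1019) at an adjusted p under 0.01. Leaving out 1 array gave 3068 to 4419 calls, 1841 to 2607 of them higher and 1227 to 1812 lower, with the fewest lower calls without mixed replicate 1. Genes with groups that did not overlap numbered 6111 to 6530 with 1 array left out, and genes in the top 100 on all arrays 55 to 64. The 200 brightest per array shared 91 genes. The mean of probe sets gave 48 bright genes, 29 of them shared. H2-K1 changed sign with the mean of probe sets (-0.28), with Xist as a covariate (-0.29), without mixed replicate 1 (-0.05, in a range to 0.99 with 1 array left out) and without the 2 C57BL/6 arrays low in Xist (-0.02), and Eif2s3y with Xist as a covariate (-1.09); the cause was not tested.

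Of 125 called genes named here, 95 kept the call under every alternative they entered, and 23 lost it with Xist as a covariate. Gad1, Slc32a1 and Rpa3 were not among those 125. Replicate numbers do not pair the groups, which come from separate experiments. Deviations of genes from their group means correlated at 0.177, 0.255 and 0.037 between same-numbered arrays. Between differently numbered arrays the correlations ran from -0.416 to 0.272. The replicate block gave 4375 calls, 2597 higher and 1778 lower, lost 2 calls of named genes and added Cryaa (-0.93, adjusted p = 0.045), Sag (0.87, adjusted p = 0.0198) and the sex-linked Xist, Eif2s3y and Kdm5d. With the filter no lymphocyte gene remained, so that list had no value. Leaving out the low-Xist arrays was chosen after seeing the data. Dim genes are limited by background, and 47.7% of genes above the median level were called, against 21.1% of the others. Named genes dim by both group means also include Guca1a, Nefh, Bhlha15, Car6, Ermap, C1qa, H2-Ab1, H2-M3, Oas2, Oasl2, Ifih1 and Pmaip1.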
